A study of Homo sapiens with 12 samples.

Results

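The RNAs described here are the named long non-coding and antisense RNAs of HEK-293T cells, a human embryonic kidney line, in which subunits of the CCR4-NOT complex were knocked down. They were chosen by symbol and by level. A gene was taken if its symbol began with LINC0 or ended in -AS1, -AS2 or -AS3, and if the brightest array row of that symbol had a mean log2 intensity of 4 or more over all 12 arrays. This gave 66 RNAs, 25 with a LINC0 symbol and 41 with an antisense symbol, of 253 symbols of the same form at any level and of 20042 genes with a value on every array. The rule used only the mean level over all arrays, so the levels below are a description. Contrasts between lines, Dox states and replicates were not used directly, but a line in which a dim RNA was high could carry it over the limit. This was so for 4 RNAs whose mean was under 4 without the arrays of 1 line, among them NEXN-AS1 (3.98 without the CNOT3 line, in which its mean was 5.23). The others were C1QTNF9B-AS1 (under 4 without the CNOT1 or the Luci line), GCFC1-AS1 (without the CNOT2 line) and PPP2R3B-AS1 (without the CNOT2 or the Luci line). Differences of these 4 RNAs that involve the named lines are descriptions and not tests.

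Long non-coding RNAs are transcribed and mostly spliced and polyadenylated like mRNAs, but are not known to be translated into a long protein. Many lie on the strand opposite to a protein-coding gene and are named after it with the suffix AS, and some carry small nucleolar RNAs (snoRNAs) in their introns. CCR4-NOT removes the poly(A) tail of RNAs and also acts in transcription, with CNOT1 as its scaffold and CNOT2 and CNOT3 as a pair of subunits bound to it.

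All cells were stable HEK-293T clones with a pINDUCER (pIND) plasmid that expresses a miR30-based shRNA when doxycycline (Dox) is given. The shRNA was directed against CNOT1, CNOT2 or CNOT3 or, as a control, against firefly luciferase (Luci), and each line was measured without Dox (-Dox) and after 4 days with Dox at 1 µg/ml (+Dox). The CNOT2 and Luci lines had 2 arrays per Dox state, taken as a first and a second experiment (replicates 1 and 2), whereas the CNOT1 and CNOT3 lines had 1 array per Dox state, all in replicate 1. Each knock-down was studied in its own clone, so that the shRNA of a line and the other properties of its clone cannot be told apart without Dox.

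Some replicates are described as technical, so that p-values may measure only the spread between arrays. The targeted gene was lowest where the labels place its knock-down. CNOT1 was at 5.07 on the CNOT1 +Dox array and at 7.23 without Dox, CNOT3 was at 6.80 on the CNOT3 +Dox array and at 8.96 without Dox, and CNOT2 was at 8.96 and 8.38 on the CNOT2 +Dox arrays and at 9.86 and 9.72 without Dox. For replicate 2 of the Luci -Dox cells the title and a characteristic give opposite Dox states. The title was followed, and results that change when this array is counted as +Dox are given as such. The kidney line markers VIM (mean 14.22) and KRT18 (mean 11.6) were high. The blood markers PTPRC (3.09) and CD3E (2.465) and the endothelial markers PECAM1 (2.8) and CDH5 (2.76) were close to the lower quartile of all array rows (2.54). Another blood marker, CD14, was higher, with a mean of 4.29 and 5.48 on the CNOT1 -Dox array. Of the fibroblast markers LUM (2.66) was low, DCN had a mean of 3.935, and COL1A1 (7.005) was not low. The neurofilament gene NEFM separated the clones, at 10.41 and 9.78 in the CNOT1 line and 8.63 and 8.71 in the CNOT3 line but between 14.45 and 14.93 on the other 8 arrays, and its part in the differences between lines below was not tested.

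The 66 RNAs had a median level of 6.39, against 8.085 for all 12261 genes at 4 or more. Of the 253 symbols 26.1% reached this level, and of all genes 61.2%. RefSeq now classes 53 of the 66 as long non-coding RNAs and 7 as protein-coding, and 2 (LINC00087 and LINC00086) had no match. The brightest was C17orf76-AS1 (mean 13.55, now named SNHG29), followed by EPB41L4A-AS1 (12.95) and LINC00493 (12.81). ZNFX1-AS1 (12.04, now ZFAS1) was the fourth, and with C17orf76-AS1 and EPB41L4A-AS1 it belongs to the snoRNA host RNAs. HLA-F-AS1 (10.95), HOXA11-AS1 (10.82), LINC00087 (10.82) and LINC00094 (10.43) were the remaining RNAs above 10, then came LINC00467 (9.625) and ZNF503-AS2 (9.62). A total of 33 RNAs lay between 6 and 10 and 25 between 4 and 6. Just inside the limit were GCFC1-AS1 (4.16), PPP2R3B-AS1 (4.10) and C1QTNF9B-AS1 (4.07), and just outside it SOX21-AS1 (3.99), LINC00346 (3.95) and SPAG5-AS1 (3.83). Because probes differ in brightness, this order ranks array signals and not amounts of RNA.

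The RNAs spread more across the arrays than genes of this level usually did. The distance between the lowest and the highest of the 12 arrays had a median of 1.99 log2 units and exceeded 2 for 31 RNAs (47.0%), against a median of 1.43 and a share of 24.6% among all genes at 4 or more. This comparison was not matched for level, and the RNAs were dimmer than these genes. HLA-F-AS1 was the steadiest, with 10.53 on its lowest and 11.17 on its highest array (range 0.64), and LINC00340 (CASC15, a transcript of a neuroblastoma risk locus) was the most variable, with 3.21 to 7.73 (range 4.52).

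**Figure D1:**
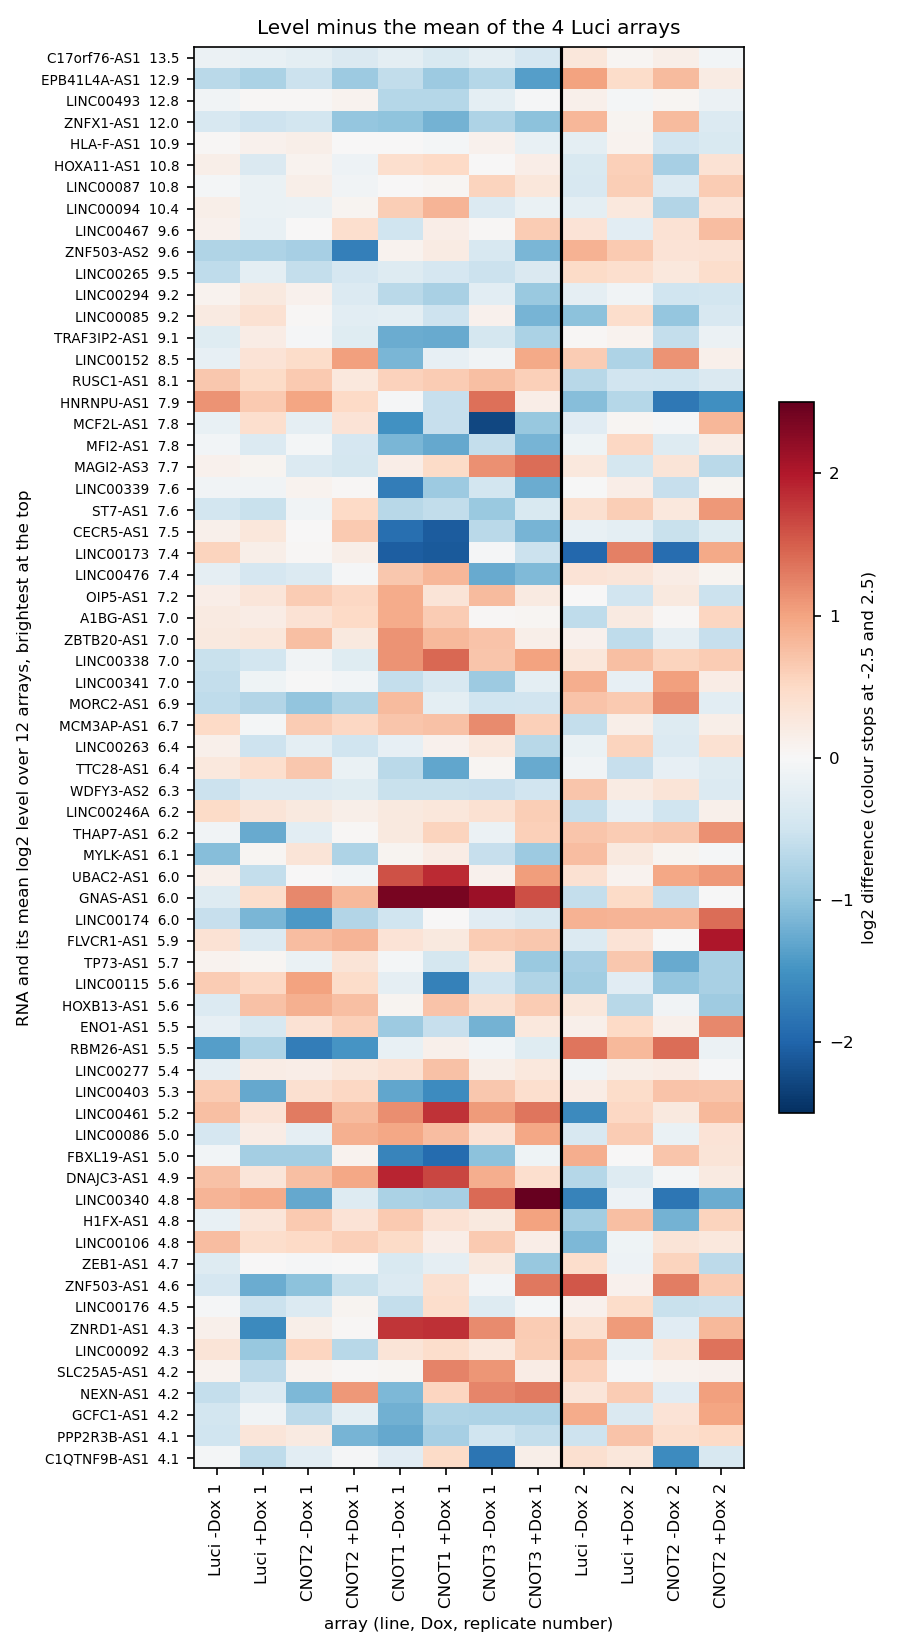
Heat map of the 66 RNAs (one line each, ordered by mean log2 level, which is printed beside the symbol) on the 12 arrays, where colour gives the log2 level minus the mean of the 4 Luci arrays and the black line separates replicate 1 from replicate 2. CECR5-AS1 and LINC00173 were low on both CNOT1 arrays, GNAS-AS1 was high on the CNOT1 and CNOT3 arrays, and EPB41L4A-AS1, LINC00174 and RBM26-AS1 were higher in replicate 2 than in replicate 1.

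The 3 snoRNA host RNAs among the brightest 4 were lower with Dox in every pair of arrays (below), and the sequence around their start is shown because transcripts of this class typically begin with a run of pyrimidines (C or T), the 5′ terminal oligopyrimidine tract. The windows hold the 30 bases before and the first 30 bases after the start annotated by RefSeq (GRCh38.p14), and capitals mark the longest run of C and T.
C17orf76-AS1 (SNHG29), chr17:16438957-16439016, plus strand: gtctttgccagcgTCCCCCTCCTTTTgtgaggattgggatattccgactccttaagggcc
EPB41L4A-AS1, chr5:112160496-112160555, plus strand: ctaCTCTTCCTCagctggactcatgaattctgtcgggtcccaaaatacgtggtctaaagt
ZNFX1-AS1 (ZFAS1), chr20:49278612-49278671, plus strand: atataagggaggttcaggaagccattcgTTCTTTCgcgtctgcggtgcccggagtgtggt
The longest run had 13 bases in C17orf76-AS1, 9 in EPB41L4A-AS1 and 7 in ZNFX1-AS1, and only that of ZNFX1-AS1 spanned the annotated start. A run at least as long was found in the same window of 4.3%, 16.2% and 33.9% of all 27305 RefSeq promoters.

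The comparison of the CNOT1 line with the Luci line, over both Dox states, asked which RNAs differed between the clones. Of the 66 RNAs 1 passed the test, CECR5-AS1, which is transcribed opposite to CECR5 (now HDHD5). In this comparison 2.26% of all genes passed. CECR5-AS1 was at 6.16 (-Dox) and 5.97 (+Dox) in the CNOT1 line, at 8.18 and 7.86 (-Dox) and 8.34 and 7.81 (+Dox) in the Luci line, and at 8.05, 7.49, 8.70 and 7.75 in the CNOT2 line. Both CNOT1 arrays thus lay more than 1 log2 unit below every CNOT2 and Luci array. The level was 3.95-fold lower than in the Luci line (log2 difference -1.98, SE 0.36, limma adjusted p = 0.0487), and with the replicates as a block the difference was -2.28 (adjusted p = 0.0107). On the replicate 1 arrays alone, where all 4 lines were measured, the difference was -2.195 (adjusted p = 0.0184). The call was lost when the second Luci -Dox array was counted as +Dox (adjusted p = 0.0616), without the filter on low values (0.0593) and when any 1 of the 8 CNOT2 and Luci arrays was left out (0.0716 to 0.116). Leaving out a CNOT2 array kept the difference at -1.98, because these arrays entered only the estimate of the spread.

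With the replicates as a block, 11 RNAs passed in the CNOT1 line, against 10.6% of all genes (776 higher and 817 lower). The 6 lower ones were CECR5-AS1, LINC00115 (-1.65, adjusted p = 0.0308), LINC00339 (-1.35, 0.0387), TTC28-AS1 (-1.29, 0.0401), TRAF3IP2-AS1 (-1.27, 0.0402) and LINC00294 (-0.92, 0.0428). The 5 higher ones were UBAC2-AS1 (2.105, 0.0166), GNAS-AS1 (2.01, 0.0443), LINC00338 (1.73, 0.0156), DNAJC3-AS1 (1.335, 0.0353) and LINC00476 (0.99, 0.0444). The other 2 rows of TRAF3IP2-AS1, which were dimmer, gave 1.80 and 0.62 in the CNOT1 line of replicate 1, against -1.19 for the brightest row. For TTC28-AS1 the brightest row gave -1.325 there. Of its dimmer rows, those with means of 5.79 and 3.01 gave -1.255 and -0.725, but that with a mean of 5.73 gave 0.04. Without the block these other 10 RNAs had adjusted p-values above the threshold of 0.05.

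GNAS-AS1, an imprinted antisense RNA of the GNAS locus that encodes the stimulatory G protein alpha subunit, had the largest positive difference from the Luci mean over both replicates. With the block ZNRD1-AS1 (2.2225, adjusted p = 0.0923) and UBAC2-AS1 were higher. GNAS-AS1 was at 7.58 on both CNOT1 arrays, at 7.36 (-Dox) and 6.82 (+Dox) in the CNOT3 line, and between 4.61 and 6.41 on the 8 CNOT2 and Luci arrays. Both lines lay above all of these arrays, by a log2 difference of 2.365 (adjusted p = 0.0698) for CNOT1 and 1.875 (adjusted p = 0.155) for CNOT3 against the same Luci arrays. Its second array row gave 1.82 and 1.525 on the replicate 1 arrays, where the brighter row gave 2.305 and 1.815. GNAS-AS1 passed the test in the CNOT1 line when either CNOT2 -Dox array was left out (adjusted p = 0.0402 and 0.0405).

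UBAC2-AS1 starts 97 bases from UBAC2 on the opposite strand. It was at 7.08 and 7.35 on the CNOT1 arrays and between 4.90 and 6.57 on the 8 CNOT2 and Luci arrays, with CNOT3 at 5.6 and 6.54. LINC00338 (SNHG20, the host of a small Cajal body RNA) was at 7.69 and 8.0 in the CNOT1 line, 7.26 and 7.58 in the CNOT3 line, 6.01 and 6.10 in the Luci line of replicate 1 and 6.84 and 7.31 in that of replicate 2. All 4 of its array rows were higher in the CNOT1 line of replicate 1, by 1.08 to 1.79. Both CNOT1 arrays were above all CNOT2 and Luci arrays, whereas the CNOT3 arrays overlapped with those of replicate 2.

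Both CNOT1 arrays lay below all 8 CNOT2 and Luci arrays for 16 RNAs (24.2%), against 12.5% of all genes, and above them for 11 (16.7%), against 13.5%. The 16 include GCFC1-AS1, which was over the level limit only through the CNOT2 arrays. The lower RNAs included the snoRNA host ZNFX1-AS1 (11.44 and 11.27, against 11.49 to 13.28 in the CNOT2 and Luci lines) and LINC00493, which RefSeq now annotates as SMIM26, a gene for a small mitochondrial protein (12.23 and 12.24, against 12.80 to 13.07). The median absolute difference from the Luci line was 0.6375 for the 66 RNAs and 0.44 for all genes tested, and the signed medians were -0.04 and 0.02.

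**Figure D2:**
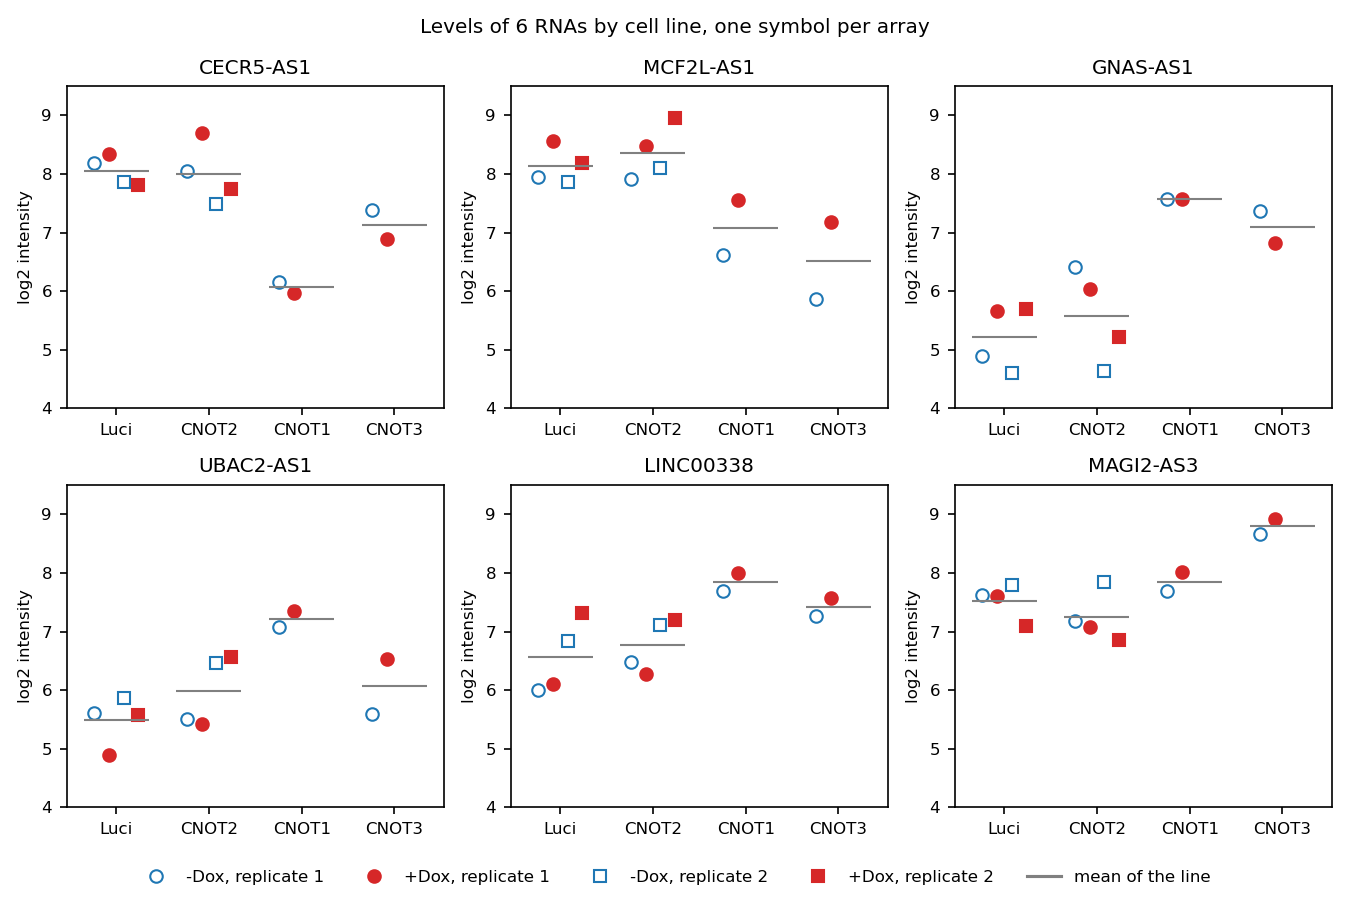
Log2 intensity (y axis) of 6 RNAs in the 4 cell lines (x axis), one symbol per array, with open symbols for -Dox, filled symbols for +Dox, circles for replicate 1, squares for replicate 2 and a grey line for the mean of each line. CECR5-AS1 was lowest on the 2 CNOT1 arrays (6.16 and 5.97), MCF2L-AS1 on the CNOT3 -Dox array (5.86), and MAGI2-AS3 was highest on the 2 CNOT3 arrays (8.67 and 8.92).

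In the CNOT3 line 1 of the 66 RNAs passed the test against the Luci line, MCF2L-AS1, against 1.18% of all genes. MCF2L-AS1 was at 5.86 (-Dox) and 7.18 (+Dox) in the CNOT3 line, at 7.94 and 7.86 (-Dox) and 8.56 and 8.18 (+Dox) in the Luci line, at 7.92, 8.10, 8.47 and 8.96 in the CNOT2 line and at 6.62 and 7.55 in the CNOT1 line. The CNOT3 and CNOT1 arrays were below all CNOT2 and Luci arrays. The level was 3.06-fold lower in the CNOT3 line (log2 difference -1.615, SE 0.26, limma adjusted p = 0.0439), and 2.07-fold lower in the CNOT1 line (-1.05, adjusted p = 0.0903) against the same Luci arrays. The blocked difference for CNOT3 was -1.59 (adjusted p = 0.0393) and that on the replicate 1 arrays alone was -1.73 (0.0325). The call was lost when the second Luci -Dox array was counted as +Dox (adjusted p = 0.0966), without the filter on low values (0.0568) and when any 1 CNOT2 or Luci array was left out (0.0817 to 0.121). Here too the difference stayed at -1.615 without a CNOT2 array, and only the estimate of the spread changed.

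The block added CECR5-AS1 (-1.21, adjusted p = 0.046), LINC00338 (1.31, 0.0392) and NEXN-AS1 (1.59, 0.0496) to the RNAs that passed in the CNOT3 line, 4 in all, against 3.86% of all genes. NEXN-AS1 was over the level limit only through the CNOT3 arrays, so its higher level there is a description and not a test. On the replicate 1 arrays its chosen row gave 1.725 for CNOT3 and 0.165 for CNOT1. Its other row, of nearly the same level (mean 4.11), was higher in both lines (1.41 and 1.77). MAGI2-AS3, at 8.67 and 8.92 in the CNOT3 line and between 6.86 and 7.84 in the CNOT2 and Luci lines, had a difference of 1.27 (adjusted p = 0.112), and its 2 brighter rows of 4 gave 1.18 and 1.145 on the replicate 1 arrays. LINC00340 was at 6.44 and 7.73 in the CNOT3 line, 4.23 and 4.20 in the CNOT1 line, 5.88 and 5.96 in the Luci line of replicate 1 and 3.36 and 4.90 in that of replicate 2. On the replicate 1 arrays this brightest row differed from the Luci line by 1.165 (CNOT3) and -1.705 (CNOT1). The dimmer rows of LINC00340 (means 3.16 and 3.01) did not repeat this, with -0.985 and -0.295 for CNOT3 and -0.47 and 0.11 for CNOT1. The CNOT3 arrays stood above all 8 CNOT2 and Luci arrays for 4 RNAs (6.06%, all genes 10.3%), namely MAGI2-AS3, GNAS-AS1, LINC00340 and NEXN-AS1. They stood below them for 5 (7.58%, all genes 10.1%), namely MCF2L-AS1, MFI2-AS1, CECR5-AS1, LINC00476 and GCFC1-AS1. GCFC1-AS1 was over the level limit only through the CNOT2 arrays (mean 3.98 without them), so its lower level here is a description. A second, dimmer row of GCFC1-AS1 (mean 3.46) gave 1.225 in the CNOT3 line of replicate 1, where the chosen row gave -0.49.

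The CNOT2 line was closer to the Luci line, and none of the 66 RNAs and 0% of all genes passed the test (limma, 1 RNA and 854 genes at an unadjusted p under 0.05). FLVCR1-AS1 (0.91), LINC00461 (0.785), the host of a miR-9 precursor, and LINC00152 (0.685) had the largest positive differences. LINC00340 (-1.16), C1QTNF9B-AS1 (-0.56) and RBM26-AS1 (-0.485) had the largest negative ones, the last with a range of -1.27 to 0.30 when single arrays were left out. C1QTNF9B-AS1 was under the level limit without the Luci arrays (mean 3.91), so its lower level in the CNOT2 line is a description. LINC00340 was at 3.75 and 4.71 in the CNOT2 line of replicate 1 and at 3.21 and 3.78 in that of replicate 2, so each CNOT2 array lay below the Luci array with the same Dox state and replicate number.

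The promoters of the 2 RNAs that passed the test in the CNOT1 or CNOT3 line are shown as RefSeq places them (GRCh38.p14). Each runs from 100 bases before to 50 bases after the start. Capitals mark a CCAAT box in the promoter of CECR5-AS1, and in that of MCF2L-AS1 they mark CCGCCC, a GC box read on the other strand.
CECR5-AS1 (HDHD5-AS1), chr22:17159289-17159438, plus strand: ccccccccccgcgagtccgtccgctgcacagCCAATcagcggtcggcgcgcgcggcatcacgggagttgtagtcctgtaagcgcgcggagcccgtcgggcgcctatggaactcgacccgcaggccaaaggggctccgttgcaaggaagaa
MCF2L-AS1, chr13:112968589-112968738, minus strand: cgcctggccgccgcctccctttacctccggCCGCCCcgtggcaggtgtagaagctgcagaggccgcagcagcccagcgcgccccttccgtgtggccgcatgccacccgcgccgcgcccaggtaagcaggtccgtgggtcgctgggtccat
Searched on both strands of 300 bases (250 before and 50 after the start), the GC box (GGGCGG) was in 55.8% of the 52 RNAs with a RefSeq promoter and in 44.6% of all 27305 promoters, the CCAAT box (CCAAT) in 40.4% and 35.7%, the ETS motif (CCGGAAG) in 13.5% and 10.7% and the TATA box (TATAAA) in 3.85% and 12%. No motif contains another, and a match describes the letters only. The median number of CG pairs per promoter was 21 for these RNAs and 14 for all promoters.

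The position on a chromosome was compared because the median gene of some chromosomes differed between clones. Relative to the Luci line of replicate 1, the median gene of chromosome 14 was 0.805 higher in the CNOT1 line and 0.345 higher in the CNOT2 line. In the CNOT3 line the median gene of chromosome 9 was lower (-0.655) and that of chromosome 21 higher (0.52). LINC00341, the only one of the RNAs on chromosome 14, had -0.15 in the CNOT1 line and 0.31 in the CNOT2 line. Of the 3 RNAs on chromosome 9, LINC00476 had -0.865, LINC00094 -0.24 and LINC00092 0.75 in the CNOT3 line. MCM3AP-AS1 on chromosome 21 had 0.665 in the CNOT3 line, close to its chromosome, whereas GCFC1-AS1 on the same chromosome had -0.49.

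The RNAs named above lay on chromosomes whose medians were shifted to different degrees. In the CNOT1 line the median was -0.23 for chromosome 1, which holds LINC00115 and LINC00339. It was 0.23 for chromosome 20, which holds GNAS-AS1, LINC00493 and ZNFX1-AS1. On chromosome 22 the median of all genes was -0.295 in the CNOT1 line, while CECR5-AS1 had -2.195, TTC28-AS1 -1.325, MORC2-AS1 0.95 and THAP7-AS1 1.075. On chromosome 13 the medians were 0.11 in the CNOT1 line and 0.14 in the CNOT3 line. Of the 6 RNAs there, MCF2L-AS1 had -1.165 and -1.73 in these lines, UBAC2-AS1 1.96 and 0.815, DNAJC3-AS1 1.27 and 0.155, RBM26-AS1 1.05 and 0.89, LINC00403 -1.105 and 0.875, and C1QTNF9B-AS1 0.445 and -0.495. On chromosomes 22 and 13 the RNAs lay on both sides of the median. Each of these values is a difference of 2 against 2 arrays with no test, and a link to the chromosome was not tested.

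The sense partner, the gene named in the symbol of an antisense RNA, was measured for 40 of the 41 antisense RNAs, and for 28 of them it was the brighter of the pair. HNRNPU-AS1, which RefSeq lists under its partner, is counted among them. The partners of both RNAs that passed did not pass themselves. CECR5 had a difference of -0.105 (adjusted p = 0.818) in the CNOT1 line and MCF2L one of 0.2125 (adjusted p = 0.812) in the CNOT3 line, while their antisense RNAs had -1.98 and -1.615. On the replicate 1 arrays the antisense RNA differed more than 2-fold in 13 pairs of the CNOT1 line and the partner in 6, and both did in 1 pair, MFI2-AS1 (-1.005) and MFI2 (-1.545). In the CNOT3 line the counts were 6 and 5, and the pair in which both exceeded 2-fold was NEXN-AS1 (1.725) and NEXN (1.265), the gene of the actin-binding protein nexilin. The 2 members of a pair had the same sign in 20 pairs (CNOT1) and 21 pairs (CNOT3) of 40. Across pairs, which share the arrays and are no independent replicates, the correlation of the differences was r = 0.10 for CNOT1 and r = 0.25 for CNOT3.

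The distance between the starts was known for 27 pairs, and in 14 of them the starts lay on opposite strands within 1000 bases. The 27 include HNRNPU-AS1, whose distance of 0 is no real one, because RefSeq lists its symbol under its partner HNRNPU. UBAC2-AS1 (1.96) and UBAC2 (-0.08) were such a pair in the CNOT1 line, as were DNAJC3-AS1 (1.27) and DNAJC3 (0.795), RBM26-AS1 (1.05) and RBM26 (0.385), and FLVCR1-AS1 (0.285) and FLVCR1 (1.765). A start within 1000 bases was therefore found both where the pair differed widely and where both were higher.

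**Figure D3:**
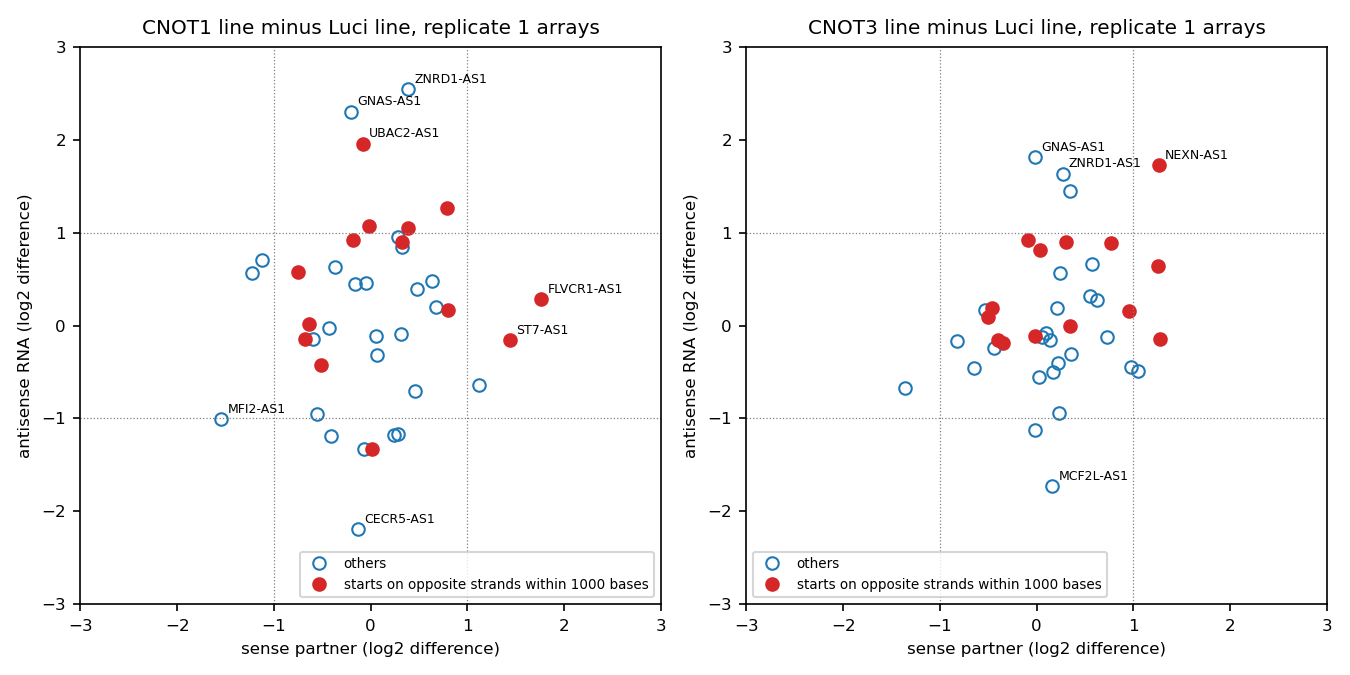
Log2 difference from the Luci line of the antisense RNA (y axis) against that of its sense partner (x axis) for 40 pairs in the CNOT1 line (left) and the CNOT3 line (right), on replicate 1 arrays, with filled red circles for pairs whose starts lie on opposite strands within 1000 bases and dotted lines at a 2-fold difference. GNAS-AS1, ZNRD1-AS1 and UBAC2-AS1 at the top of the left plot had partners between -0.205 and 0.39, and the partners of CECR5-AS1 (left, bottom) and MCF2L-AS1 (right, bottom) were at -0.13 and 0.16.

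The knock-down itself was examined by comparing +Dox with -Dox cells of the same line and +Dox cells of a CNOT line with Luci +Dox cells. For CNOT2, the subunit with replicates, none of the 66 RNAs and 0% of all genes passed the test against Luci +Dox cells (limma, 2 RNAs and 806 genes at an unadjusted p under 0.05). FLVCR1-AS1 was highest in CNOT2 +Dox cells, at 6.30 and 7.47 against 5.10 and 5.78 in Luci +Dox cells and 6.21 and 5.44 in CNOT2 -Dox cells (difference from Luci +Dox 1.445, SE 0.52, adjusted p = 0.893). The groups did not overlap, but 1 of the 2 CNOT2 +Dox arrays differed from its own -Dox array by only 0.09. LINC00403 (1.015) and NEXN-AS1 (0.91) followed, and LINC00340 (-1.185), PPP2R3B-AS1 (-0.845) and RBM26-AS1 (-0.825) had the largest negative differences. The median difference was 0.0025 for the 66 RNAs and -0.005 for all genes.

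Against CNOT2 -Dox cells again no RNA and 0% of all genes passed (2 RNAs and 602 genes at an unadjusted p under 0.05). NEXN-AS1 (1.765, adjusted p = 1.0), LINC00173 (1.48) and FLVCR1-AS1 (1.06) were highest and ZNFX1-AS1 (-0.82), PPP2R3B-AS1 (-0.655) and RBM26-AS1 (-0.64) lowest. Leaving out single arrays moved PPP2R3B-AS1 between -1.485 and 0.175 and RBM26-AS1 between -2.21 and 0.93. In the Luci line Dox had none passing either (0% of all genes, 1 RNA and 419 genes at an unadjusted p under 0.05). LINC00173 (1.415), H1FX-AS1 (1.05), PPP2R3B-AS1 (1.02), LINC00092 (-1.135), ZNF503-AS1 (-1.135) and FBXL19-AS1 (-0.835) had the largest differences there. The sign of LINC00173, ZNF503-AS1 and FBXL19-AS1 turned when the second Luci -Dox array was counted as +Dox (-0.74, 0.56 and 0.10). The test of the difference between the Dox effects of both lines gave no RNA (0% of all genes, 0 RNAs and 353 genes at an unadjusted p under 0.05), with NEXN-AS1 (1.475), FBXL19-AS1 (1.125), FLVCR1-AS1 (1.075), PPP2R3B-AS1 (-1.675), MYLK-AS1 (-0.885) and GNAS-AS1 (-0.835) as the largest values. Leaving out the first Luci -Dox array moved MYLK-AS1 to 0.025, and leaving out the first CNOT2 -Dox array moved GNAS-AS1 to 0.05.

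For CNOT1 and CNOT3, with 1 array per Dox state, the test borrowed the spread of the replicated groups and assumed that the single arrays vary alike. No RNA passed in either own-line comparison (0% of all genes in both, 2 and 3 RNAs at an unadjusted p under 0.05 against 383 and 467 genes). In the CNOT1 line NEXN-AS1 (1.66), SLC25A5-AS1 (1.19) and LINC00176 (1.03) were highest with Dox and LINC00115 (-1.45), MORC2-AS1 (-1.04) and TTC28-AS1 (-0.62) lowest. In the CNOT3 line C1QTNF9B-AS1 (1.97), ENO1-AS1 (1.45) and ZNF503-AS1 (1.39) were highest and TTC28-AS1 (-1.30), LINC00085 (-1.26) and HNRNPU-AS1 (-1.21) lowest.

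Against Luci +Dox cells no RNA passed for CNOT1 (0.233% of all genes, 8 RNAs and 1765 genes at an unadjusted p under 0.05) or CNOT3 (0.273% of all genes, 8 RNAs and 1726 genes). The largest differences for CNOT1 were those of UBAC2-AS1 (2.11), ZNRD1-AS1 (2.095), GNAS-AS1 (1.90), LINC00173 (-2.805), CECR5-AS1 (-2.105) and LINC00115 (-1.80). With the replicates as a block CECR5-AS1 (-2.40, adjusted p = 0.0377) and UBAC2-AS1 (2.49, adjusted p = 0.046) passed, against 1.18% of all genes. In CNOT1 -Dox cells CECR5-AS1 was at 6.16 and UBAC2-AS1 at 7.08, outside the range of the Luci -Dox arrays (8.18 and 7.86, and 5.61 and 5.87). For CNOT3 the largest differences were LINC00340 (2.30), ZNF503-AS1 (1.88), MAGI2-AS3 (1.575), LINC00085 (-1.56), TP73-AS1 (-1.30) and LINC00339 (-1.28).

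Over the 4 pairs of arrays that compare +Dox with -Dox in a CNOT line, 10 RNAs were higher with Dox in every pair (13.0% of all genes were) and 6 were lower (11.4%). When the 2 Luci pairs were added, one of which rests on the title of the second Luci -Dox array, 2 RNAs were higher in all 6 pairs (4.72% of all genes) and 3 were lower (4.28%), shares of 3.03% and 4.55% of the 66. MCF2L-AS1 was higher with Dox by 0.93 in the CNOT1 line, 0.55 and 0.86 in the CNOT2 line, 1.32 in the CNOT3 line and 0.62 and 0.32 in the Luci line. The mean over the 3 CNOT lines was 0.985 (SE 0.22, limma adjusted p = 0.771), and the value of the Luci line in replicate 1 lay between those of the 2 CNOT2 pairs. The Dox difference of NEXN-AS1 was 1.66 for CNOT1, 2.21 and 1.32 for CNOT2, 0.08 for CNOT3 and 0.25 and 0.33 for Luci (mean over the CNOT lines 1.17, adjusted p = 0.890). It was already at 5.19 in CNOT3 -Dox cells, above the other 5 -Dox arrays (2.84 to 4.27). In the mean over the CNOT lines no RNA and 0% of all genes passed (6 RNAs and 732 genes at an unadjusted p under 0.05), and the 3 largest values in each direction were those of NEXN-AS1, C1QTNF9B-AS1 (1.15) and MCF2L-AS1, and of TTC28-AS1 (-0.80), LINC00115 (-0.63) and HNRNPU-AS1 (-0.63).

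The 3 RNAs that were lower with Dox in all 6 pairs were the snoRNA hosts C17orf76-AS1, EPB41L4A-AS1 and ZNFX1-AS1, whose starts are printed above. C17orf76-AS1 differed by -0.15 (CNOT1), -0.11 and -0.22 (CNOT2), -0.18 (CNOT3) and -0.04 and -0.23 (Luci). EPB41L4A-AS1 differed by -0.30, -0.38 and -0.58, -0.67, and -0.11 and -0.56 in the same order, and ZNFX1-AS1 by -0.17, -0.51 and -1.13, -0.26, and -0.12 and -0.75. For C17orf76-AS1 these are values of the brightest row. Averaged over the CNOT2 and Luci lines in replicate 2, that row gave -0.225 with Dox. Its dimmer rows (means 8.17 and 3.21) gave 0.165 and 0.51. The Luci pair of replicate 2 had the largest of the 6 differences for C17orf76-AS1 and a larger one than 3 of the 4 CNOT pairs for ZNFX1-AS1, and none of these RNAs passed a Dox test. Of 17 other snoRNA host genes on a list, 12 were tested, and SNHG1, SNHG8 and GAS5 were also lower in all 6 pairs. Their median difference was -0.32 in CNOT2 +Dox against Luci +Dox cells and -0.25 in the mean over the CNOT lines, with all 12 below 0 in both and none passing, while the medians of all genes were -0.005 and 0.01. All 12 were below 0 also in the comparison of the CNOT2 and Luci lines over both Dox states (median -0.28, all genes -0.0025). The same held for the CNOT2 Dox effect minus the Luci Dox effect (median -0.2225, all genes 0.005), again with none passing. For Dox in the Luci line the median of the 12 was -0.0575, with 4 above 0. These comparisons share arrays, and a cause was not tested. Of 50 other named long non-coding RNAs 26 were tested, and none passed in any of these 12 comparisons between lines or Dox states.

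**Figure D4:**
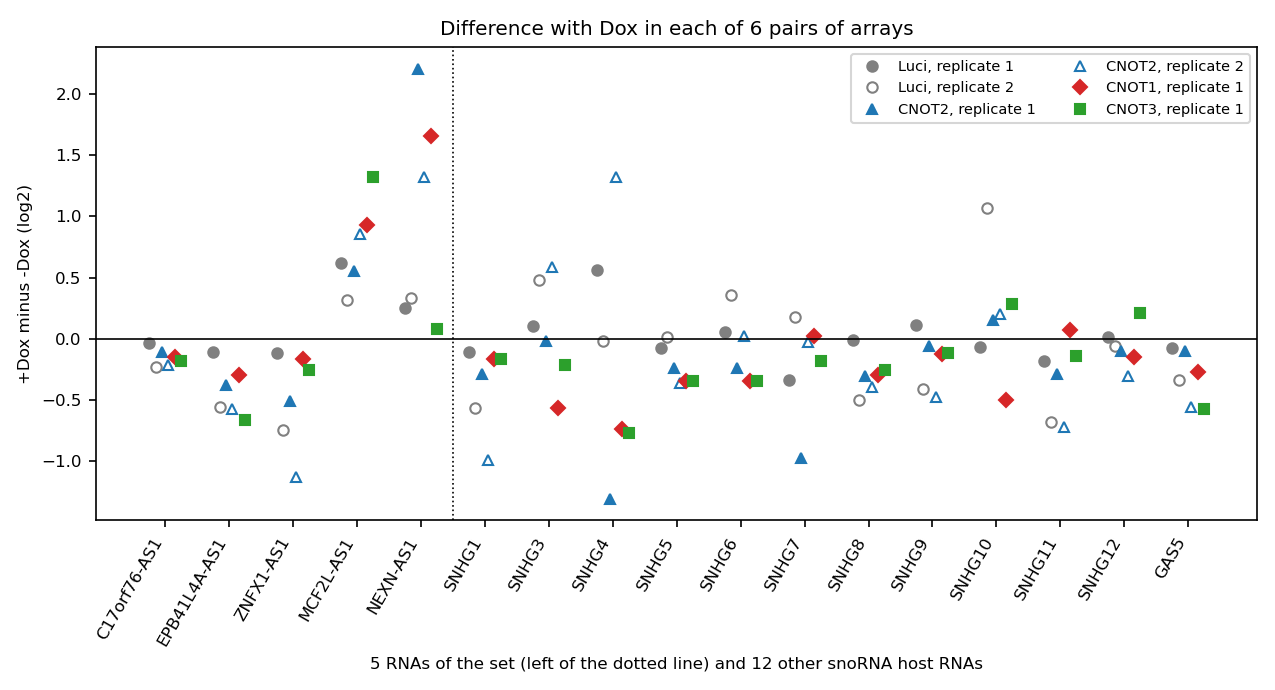
Difference between +Dox and -Dox (y axis, log2) in 6 pairs of arrays, with one symbol per pair, for 5 of the RNAs and for 12 other snoRNA host RNAs (x axis). C17orf76-AS1, EPB41L4A-AS1 and ZNFX1-AS1 lay below 0 and MCF2L-AS1 and NEXN-AS1 above 0 in all 6 pairs, with the Luci pairs (grey) on the same side.

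The largest number of RNAs passed in the comparison that separated replicate 2 from replicate 1 in the CNOT2 and Luci lines, a comparison chosen after the values were seen. Of the 66 RNAs 11 were higher in replicate 2 (9.03% of all genes) and 4 were lower (6.89% of all genes). EPB41L4A-AS1 was at 12.61, 12.50, 12.75 and 12.37 in replicate 1 (Luci -Dox and +Dox, CNOT2 -Dox and +Dox) and at 14.30, 13.74, 14.08 and 13.50 in replicate 2, a difference of 1.35 (SE 0.15, limma adjusted p = 0.0171). LINC00174 was at 5.54, 4.97, 4.68 and 5.39 against 6.99, 6.96, 6.96 and 7.51 (1.96, adjusted p = 0.0148). The replicates did not overlap for either RNA. Each replicate number was taken as 1 experiment, so these p-values measure the spread between arrays and not that between experiments.

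RBM26-AS1 (2.19), ZNF503-AS1 (1.70), ZNF503-AS2 (1.57), MORC2-AS1 (1.34), THAP7-AS1 (1.19) and ZNFX1-AS1 (0.92) were also higher in replicate 2, with LINC00338 (0.90), LINC00265 (0.875) and ST7-AS1 (0.74), of which the last 3 fall outside the rule for naming RNAs. The lower ones were HNRNPU-AS1 (-2.085), LINC00115 (-1.38), RUSC1-AS1 (-1.025) and DNAJC3-AS1 (-0.905). HNRNPU-AS1 was at 9.10, 8.63, 8.97 and 8.47 in replicate 1 and at 6.92, 7.27, 6.2 and 6.44 in replicate 2. The replicates did not overlap for HNRNPU-AS1 either. These calls rest on all 8 arrays: without any 1 of them none of the 66 RNAs and at most 1 of all genes passed. Without the filter on low values 8 higher and 3 lower RNAs passed, with MORC2-AS1, ZNFX1-AS1, ST7-AS1 and DNAJC3-AS1 lost, and with the mean of all rows LINC00265 was lost. With the second Luci -Dox array as +Dox 10 RNAs passed, against 6.31% of all genes. ZNF503-AS1, MORC2-AS1, ZNFX1-AS1, LINC00338, ST7-AS1 and DNAJC3-AS1 were then lost, and UBAC2-AS1 was added. Since the CNOT1 and CNOT3 lines were measured only in replicate 1, the difference between replicates is part of their differences from the Luci mean over both replicates, but not of the replicate 1 values above. RefSeq now lists the symbol HNRNPU-AS1 under the protein-coding gene HNRNPU, whose own row had a mean of 12.22 and differed by 0.245 in the CNOT1 line where that of HNRNPU-AS1 differed by -1.18.

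The Dox differences of the replicates were also compared, again after the values were seen. LINC00173 was at 8.46 (Luci -Dox), 8.06 (Luci +Dox), 7.93 (CNOT2 -Dox) and 8.05 (CNOT2 +Dox) in replicate 1, and at 5.94, 9.17, 6.01 and 8.85 in replicate 2. Both lines were thus low without Dox in replicate 2 only, as far as the title of the second Luci -Dox array holds. With its other label the Luci line of replicate 2 has no -Dox array, and the CNOT2 pairs (0.12 and 2.84) remain. The difference between the Dox effects of the replicates was 3.175 (SE 0.31, adjusted p = 0.301), and no RNA and 0% of all genes passed this test (17 RNAs and 2153 genes at an unadjusted p under 0.05), although with an intensity trend 8 RNAs did, against 5.87% of all genes. A second row of LINC00173 differed by 2.36 with Dox in replicate 2, where the brightest row differed by 3.035, and the dimmest row by 0.10. In the CNOT1 line LINC00173 was at 5.85 and 5.81, the level of the -Dox cells of replicate 2.

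LINC00152 (CYTOR), studied in several cancers, went the other way. It was higher with Dox in all 4 pairs of replicate 1 (0.94 for CNOT1, 0.58 for CNOT2, 1.05 for CNOT3 and 0.55 for Luci) and lower in both pairs of replicate 2 (-1.0 for CNOT2 and, by the title of that Luci array, -1.41 for Luci). The difference between the replicates was -1.77 (adjusted p = 0.301). HOXA11-AS1, transcribed from the HOXA cluster, had -0.22 (CNOT2) and -0.49 (Luci) in replicate 1 and 1.19 and 0.98 in replicate 2, where its second row gave a mean of 1.19 and the brighter row one of 1.085. LINC00461 differed by 1.81, ZNRD1-AS1 by 1.80, RBM26-AS1 by -1.47 and HOXB13-AS1 by -1.365 between the Dox effects of the replicates.

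**Figure D5:**
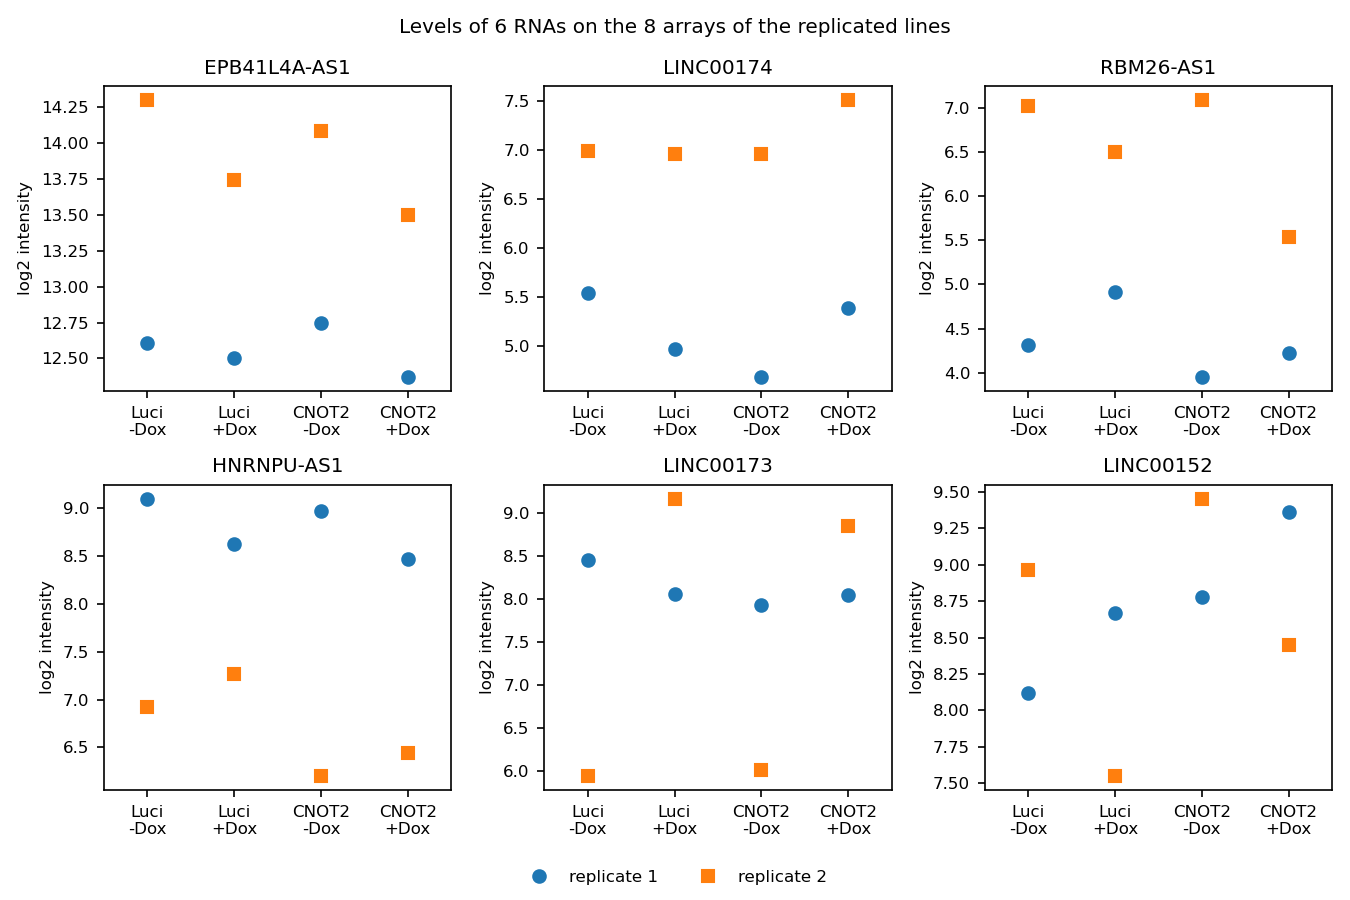
Log2 intensity (y axis, scaled per RNA and not starting at 0) of 6 RNAs on the 8 arrays of the Luci and CNOT2 lines (x axis), with circles for replicate 1 and squares for replicate 2. EPB41L4A-AS1, LINC00174 and RBM26-AS1 were higher and HNRNPU-AS1 lower on every replicate 2 array, and LINC00173 was near 6 only on the 2 replicate 2 arrays titled as without Dox.

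Other RNAs with a described role were also followed across the arrays. OIP5-AS1, which pairs with the microRNA miR-7, ranged from 6.44 to 7.90, and was lower with Dox in all 4 CNOT pairs (-0.11 to -0.77) and in 1 of the 2 Luci pairs. MCM3AP-AS1 ranged from 5.80 to 7.58 and ZEB1-AS1, the antisense RNA of the transcription repressor ZEB1, from 3.92 to 5.42. HLA-F-AS1, next to the MHC class I gene HLA-F, lay between 10.53 and 11.17 on all arrays. LINC00467, with 13 array rows of which the dimmest had a mean of 8.65, was higher with Dox by 0.67, 0.41, 0.41 and 0.60 in the CNOT1, CNOT2 and CNOT3 pairs and lower by -0.28 and -0.59 in the Luci pairs. It was 1 of 4 RNAs whose Dox differences had opposite signs in the CNOT2 and Luci lines in both replicates, which 8.9% of all genes did. The CNOT and Luci pairs did not overlap in the brightest row, and the test of the CNOT2 against the Luci effect gave 0.845 (SE 0.40, limma adjusted p = 1.0). Over both lines in replicate 2, Dox gave -0.09 in this row and -0.105 to 0.325 in the other 12 rows. These values average the CNOT2 and Luci lines, so they cannot show whether the other rows had opposite signs in the 2 lines.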

How the data were processed

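RNA of the 12 cell samples was measured on one-colour Agilent arrays (Cy3). The deposited values are log2 intensities that the authors had corrected for background by NormExp, with negative control spots as the reference, and then quantile-normalized with limma (version not given in the sources used here). The log base was inferred from the range of the values, and no detection calls were used. Arrays have no sequencing depth, and precision is limited by how many there were per group.

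Probes were named from the platform annotation, and the brightest of several rows stood for a gene (32 of the 66 RNAs had 1 row and 34 had more). Genes below the 25th percentile of the mean level (2.96) were left out, which removed none of the 66 RNAs. Differences were tested with limma 3.58.1 in R 4.3.3, with Benjamini-Hochberg adjustment over all genes and a threshold of 0.05. The CNOT2 and Luci comparisons used 8 arrays (15031 genes), and those with CNOT1 or CNOT3 used all 12 (15036 genes). The code was tested on simulated data.

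Replicate numbers were taken as experiments because the study describes a first and a later one. Deviations from the group means correlated between same-numbered arrays by 0.36 to 0.61 in 6 pairs of groups, so that blocked values are given where they change a call. Of the second Luci -Dox array, the title (no Dox) was followed over a conflicting characteristic. Alternatives were the block, an intensity trend, no filter, the mean of all rows, cyclic loess, the other label of that array, replicate 1 alone and leaving out single arrays. The block together with the trend, and both replicate comparisons with their alternatives, were added after seeing the data.

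The text names, per comparison, up to 8 RNAs in each direction that passed, or otherwise the 3 largest in each direction, the 10 brightest RNAs, those next to the level limit, RNAs with a described role, sense partners of RNAs that passed and the targeted genes. Other RNAs named for the block, for non-overlap, for the Dox pairs or by chromosome were chosen after their values were seen. The RNAs and gene lists were chosen with earlier results of these data known. Sequences are from RefSeq (GRCh38.p14), where 51 of the RNAs matched by accession and 13 by name.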

Additional observations from a re-analysis of the deposited data

Results flagged for a closer look

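For 4 of the 66 RNAs (6.06%, all genes 8.9%) the difference between +Dox and -Dox cells had opposite signs in the CNOT2 and Luci lines in both replicates. The CNOT2 difference minus the Luci difference was 0.845 for LINC00467, 0.995 for THAP7-AS1, 0.93 for LINC00174 and 1.045 for C1QTNF9B-AS1. For LINC00467 the CNOT2 pairs gave 0.41 and 0.41 and the Luci pairs -0.28 and -0.59. In the test of the difference between the lines (limma) no RNA passed. One Luci pair was close to 0 for THAP7-AS1 (-0.06) and LINC00174 (-0.03). The second Luci pair rests on the title of the array with conflicting labels. No group had enough arrays to look for single arrays that stand apart.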

How the results depend on the processing

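In the CNOT1 line against the Luci line, 1 RNA passed as reported, against 11 with the replicate block, 3 with an intensity trend, 0 without the filter on low values, 0 with the second Luci -Dox array as +Dox, 20 with the replicate block and trend (21.4% of all genes), 16 on the replicate 1 arrays alone (16.7%), and 0 to 1 when single arrays were left out. In the CNOT3 line 1 RNA passed, against 4 with the replicate block, 0 without the filter, 0 with the array relabelled, 10 with block and trend (12.6%), 3 on replicate 1 alone (5%) and 0 without any single array. Against Luci +Dox cells, 2 RNAs passed for CNOT1 with the replicate block, and with block and trend 10 passed for CNOT1 (11% of all genes) and 8 for CNOT3 (7.87%). With a trend, 8 (5.87% of all genes) passed in the difference of Dox effects between replicates. Between replicates 15 RNAs passed, against 21 with a trend (27.1% of all genes), 11 without the filter (6.35%), 10 with the array relabelled (6.31%) and 0 without any single array. The block changed no other call. Over all genes, the CNOT1 line had 130 higher and 210 lower, against 776 and 817 with the block, 218 and 320 with the trend, 72 and 125 with the array relabelled and 1272 and 1244 on replicate 1 alone, and the CNOT3 line had 65 and 113, against 222 and 359 with the block. When single arrays were left out, signs turned in CNOT2 +Dox against -Dox cells for PPP2R3B-AS1 (-1.485 to 0.175, above 0 without the first +Dox array) and RBM26-AS1 (-2.21 to 0.93, above 0 without the second -Dox array and, at 0.02, without the first +Dox array). They turned in the Luci Dox comparison with the array relabelled for LINC00173 (-0.74), ZNF503-AS1 (0.56) and FBXL19-AS1 (0.10). In the difference between both lines' Dox effects MYLK-AS1 ranged from -1.795 to 0.025 (without the first Luci -Dox array) and GNAS-AS1 from -1.72 to 0.05 (without the first CNOT2 -Dox array). In the CNOT2 line RBM26-AS1 ranged from -1.27 to 0.30 (without the first CNOT2 -Dox array) and was 0.1925 without the second Luci -Dox array. TTC28-AS1 turned in the CNOT1 Dox comparison with the mean of all rows (0.1575). The causes were not tested. Of 1166 values recomputed for named RNAs, 1022 kept their direction and their side of the threshold. Without detection calls, differences of the dimmest RNAs are the least certain.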
